A study of Mus musculus with 12 samples.

Results

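How far the response of mouse macrophages to tunicamycin and lipopolysaccharide (LPS) together departed from the sum of their responses to each agent alone was measured in 12 of 12 RNA sequencing libraries. Bone-marrow-derived macrophages of wild-type genotype (WT), which all groups shared, were grown from marrow with the growth factor M-CSF for 7 days in 10% serum. The 4 groups of 3 libraries were untreated control cells, cells given LPS (1 ng/ml, 3 h), cells given tunicamycin (5 ug/ml), and cells pretreated with tunicamycin for 3 h and then given LPS for 3 h. The labels carry 1 protocol for all samples, so the time that cells with tunicamycin alone spent in the drug, and whether the drug stayed on during LPS, are not given in the sources used here. They also do not say whether replicates were separate mice, marrow pools or dishes, and p-values then measure only the spread between these libraries. Of 24346 genes in the deposited table, 10311 reached an FPKM (fragments per kilobase of transcript, scaled to the number of mapped fragments) of at least 1 in at least 3 libraries and were tested.

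Tunicamycin blocks the enzyme that starts N-linked glycosylation, so that unfolded protein accumulates in the endoplasmic reticulum (ER). The sensors PERK, IRE1 and ATF6 then start the unfolded protein response, which slows translation and raises ER chaperones, degradation factors and the transcription factors ATF4 and CHOP. LPS is sensed by TLR4 with CD14 and MD-2 and drives NF-kB, MAP kinases and, through the adaptors TRAM and TRIF, IRF3, interferon beta and the genes that interferon induces.

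All 10 macrophage markers were tested and their summed level was 1.47e+04 to 2.43e+04 FPKM across the 4 groups, while the listed markers of T and NK, B and plasma, erythroid and mast cells summed to at most 1.6 FPKM in any library. Summed neutrophil markers were 86.7 to 126 FPKM in control, 190 to 317 with LPS, 14.3 to 25.8 with tunicamycin and 17.1 to 31.7 with both, and stromal markers were 15.5 to 20.2, 19.4 to 24.9, 29.9 to 50.6 and 26.1 to 60.5 FPKM in the same order. None of the 5 tested neutrophil, 6 stromal, 2 dendritic or 1 T and NK marker genes passed the limma interaction defined below (2, 0, 0 and 0 at an unadjusted p under 0.05), with medians of -0.95, -0.34, -0.50 and -0.60. Of the 8 neutrophil markers, only Retnlg was listed at 0 in all control libraries. Retnlg and Elane were at 0 in all tunicamycin libraries, and Retnlg and Mpo in all joint libraries. Summed dendritic markers were 0.179 to 0.594 FPKM in control, 3.98 to 8.78 with LPS, 0.359 to 1.7 with tunicamycin and 2.18 to 5.27 with both. The part of these cells in the results was not tested, and in bulk RNA fewer cells of a type and less RNA per cell cannot be told apart. Across genes, r was 0.9726 to 0.9857 within groups and 0.8887 to 0.9515 between them. Control replicate 2 and replicate 3 of the joint group lay farthest from the rest of their groups.

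The interaction of a gene is the LPS effect in tunicamycin-treated cells less the LPS effect in cells without tunicamycin, in log2(FPKM + 1). It is 0 when the 2 single effects add on the log2 scale, that is, when their folds multiply. The LPS effect in tunicamycin-treated cells is the joint group less tunicamycin alone. Should these groups differ in time in or since the drug, that difference cannot be told apart from LPS, here or in the interaction. Adding 1 FPKM understates the folds of low genes. The interaction passed the limma test at a Benjamini-Hochberg adjusted p under 0.05 for 347 of 10311 genes (3.37%), with 145 positive (1.41%) and 202 negative (1.96%). Of these, 268 (2.6%) were at least 1 in log2 size, and 1524 genes (14.8%) had an unadjusted p under 0.05. The median interaction over all genes tested was -0.03. For the single contrasts named with genes below, the share of all genes that passed was 18.4% for LPS against control, 34.5% for tunicamycin against control, 28.9% for both against LPS, 15.7% for both against tunicamycin and 40.8% for both against control. Without control replicate 2 and joint replicate 3, a choice made after the data were seen, 216 genes passed, 70 of them positive, and without tunicamycin replicate 3 alone 228 passed. Positive calls numbered 92 without tunicamycin replicate 3, 93 without control replicate 2 and 95 without LPS replicate 2.

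**Figure D1:**
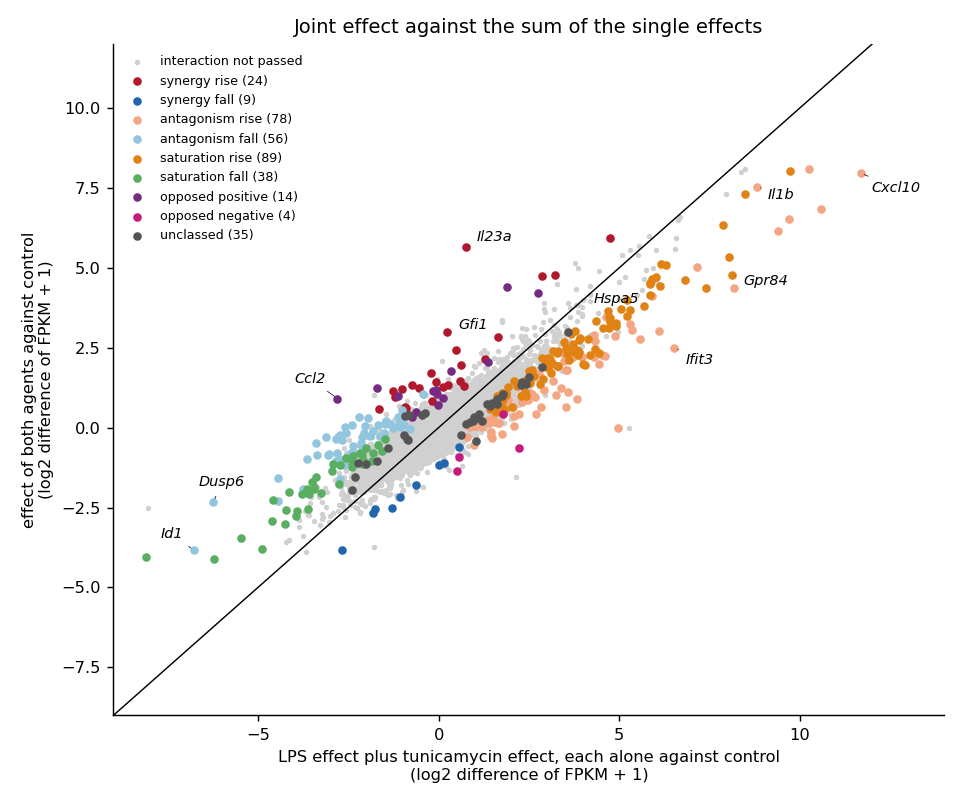
Effect of both agents against control (vertical axis) plotted against the sum of the LPS effect and the tunicamycin effect (horizontal axis), both as log2 differences of FPKM + 1, for 10311 genes. The line marks additive effects, and coloured points are the 347 genes that passed the interaction, by class. Points bend away from the line towards 0 at both ends, and Il23a and Ccl2 lie above it.

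The 347 genes were sorted by their 4 group means, with a margin of 1.5-fold (log2 of FPKM + 1), as a description with no test of its own. Synergy meant an interaction in the direction of the change together with a joint level past every other group by the margin: above them in 24 genes (0.233% of those tested) and below them in 9 (0.0873%). Saturation meant that both agents moved the gene the same way, that the interaction had the opposite sign, so that the joint fold was under the product of the single folds, and that the joint level did not fall short of the stronger agent by the margin: 89 genes higher (0.863%) and 38 lower (0.369%). The name implies no ceiling, since in 10 of the 89 the joint level was above every other group by the margin, and in 3 of the 38 below. Antagonism meant that the joint level fell short of the stronger agent by the margin: 78 genes that an agent raised (0.756%) and 56 that an agent lowered (0.543%). In 14 genes with a positive (0.136%) and 4 with a negative interaction (0.0388%) the agents pushed in opposite directions, and 35 genes (0.339%) were in no class. LPS alone gave the higher mean in 59 of the 78 genes of antagonised rise and 74 of the 89 of saturated rise.

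**Figure D2:**
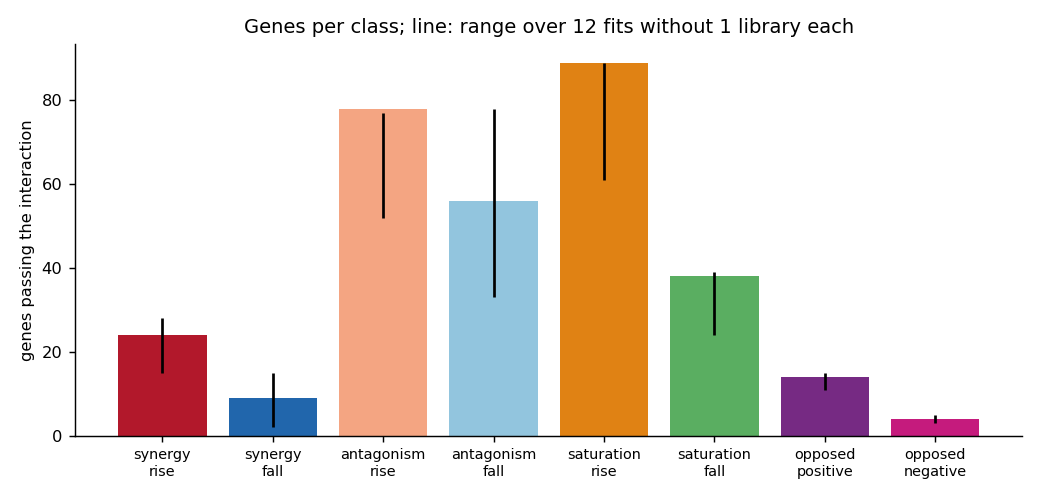
Number of genes that passed the interaction in each class (bars, all 12 libraries), with vertical lines for the lowest and highest count over 12 fits that each leave out 1 library. Saturated rise (89) and antagonised rise (78) are the tallest bars, and synergistic fall ranged from 2 to 15.

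Il23a, the p19 subunit of interleukin 23 (chromosome 10, 128296139 to 128298752, minus strand, mm10), had the largest positive interaction among genes of the synergy class. It was listed at 0 in all 3 control libraries, at 0.519, 0.186 and 0.31 FPKM with LPS and at 0, 0.266 and 0.591 FPKM with tunicamycin. With both agents it reached 56.5, 48.6 and 43.1 FPKM. Neither single effect passed (limma adjusted p = 0.252 for LPS and 0.278 for tunicamycin), and the interaction was 4.90 ± 0.32 (log2, SE; adjusted p = 1.35e-07). Every joint library lay far above all 9 others. Il23a entered the test only through the joint libraries, the only ones at 1 FPKM or more, so a gene kept in this way had to differ, and its p is no independent support.

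Gfi1, a zinc-finger transcriptional repressor of blood cells (chromosome 5, 107716657 to 107726036, minus strand), had the same shape at a lower level. It was listed at 0 in all control libraries and read 0.163, 0 and 0.0488 FPKM with LPS, 0, 0.209 and 0.12 FPKM with tunicamycin and 6.21, 7.39 and 7.17 FPKM with both. Its interaction was 2.74 ± 0.30 (adjusted p = 4.14e-05). Like Il23a, it entered the test only through the 3 joint libraries, the only ones above 1 FPKM.

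Otud1, a deubiquitinase (chromosome 2, 19657752 to 19660583, plus strand), fell with tunicamycin from 5.48 ± 1.4 FPKM to 2.71 ± 0.344 FPKM (SD, n = 3), stood at 4.53 ± 0.719 FPKM with LPS and reached 13.8 ± 3.12 FPKM with both, with an interaction of 2.2 ± 0.32 (adjusted p = 0.000507). Fbxo33, a substrate receptor of a ubiquitin ligase, behaved alike, with group means of 10.4 FPKM in control, 7.88 FPKM with LPS, 5.5 FPKM with tunicamycin and 21 FPKM with both (interaction 2.16 ± 0.33, adjusted p = 0.00098). For both genes the tunicamycin effect passed as a fall without LPS and as a rise in its presence. Hk2, the inducible hexokinase that opens glycolysis, changed with neither agent past the test and rose from 7.97 ± 0.621 FPKM to 20.7 ± 2.02 FPKM with both (1.27 ± 0.19 in log2, adjusted p = 4.62e-05; interaction 1.16 ± 0.27, adjusted p = 0.0222). That interaction missed the threshold in 5 of 21 other settings of the analysis. It was the only member to pass of 26 tested on the list of glycolysis genes and HIF-1 targets (3.85%, beside 3.37% over all genes).

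Il6 sat at the edge of the class. It read 0.12, 0 and 0.123 FPKM in control, 12.5, 19.6 and 19.3 FPKM with LPS, 0.534, 0.694 and 1.1 FPKM with tunicamycin and 80.4, 60.1 and 55.5 FPKM with both. The joint libraries were all above the LPS libraries, 3.68-fold on the log2(FPKM + 1) scale (1.88 ± 0.22 in log2, adjusted p = 9.13e-06). The interaction was 1.17 ± 0.31 (adjusted p = 0.0496), the call was lost in 14 of 21 other settings, among them 11 of the 12 fits that each leave out 1 library, and with a pseudocount of 0.1 the value turned to -0.38 (adjusted p = 0.802). The joint level thus exceeded LPS alone in each library, while the excess over the product of the single folds was not stable across settings. Nos2, the inducible nitric oxide synthase, was listed at 0 in all controls, at 7.31, 11.2 and 14.2 FPKM with LPS, at 0, 0.297 and 0.258 FPKM with tunicamycin and at 45.5, 23.8 and 38.9 FPKM with both, and its interaction of 1.4 ± 0.37 did not pass (adjusted p = 0.0523).

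Mars, the cytosolic methionyl-tRNA synthetase and a target of ATF4, went from 31 ± 1.45 FPKM in control to 51 ± 1.83 FPKM with tunicamycin and 77.7 ± 8.5 FPKM with both, at 30.9 ± 1.56 FPKM with LPS alone. Its interaction of 0.60 ± 0.15 (adjusted p = 0.0421) was the smallest of the synergy class to be named and was lost in 15 of 21 other settings. Crls1, the cardiolipin synthase, and Rfwd2, also called Cop1, a ubiquitin ligase, had interactions of 2.40 ± 0.54 and 2.25 ± 0.55, but their replicates were widely spread. Crls1 read 17.6, 15.3 and 6.97 FPKM in control and 28.8, 12.9 and 7.16 FPKM with tunicamycin, and Rfwd2 read 16.6, 16 and 7.21 FPKM and 16.2, 7.47 and 3.42 FPKM. With both agents Crls1 read 36.4, 21.1 and 30.4 FPKM, which did not pass against tunicamycin (limma adjusted p = 0.101). Rfwd2 then read 28, 14.9 and 17.3 FPKM, which did not pass against control (limma adjusted p = 0.234). In both genes control replicate 3 was the low library, tunicamycin replicate 1 the high one, and the calls were lost in 9 and 13 of 21 settings. Chosen after their values were seen, Tnfsf9, the ligand of the costimulatory receptor 4-1BB, and Il1rn, the interleukin-1 receptor antagonist, also belonged to the class, with interactions of 1.56 ± 0.21 and 1.07 ± 0.26. Without LPS replicate 1 the synergistic rises numbered 15, and without control replicate 2 and joint replicate 3 they numbered 13.

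Among the 9 synergistic falls, Itgb2, the CD18 chain of the leukocyte beta-2 integrins (chromosome 10, 77530252 to 77565708, plus strand), was the most abundant gene named. It read 199, 233 and 265 FPKM in control and 251, 259.5 and 275 FPKM with LPS, which did not lower it (adjusted p = 0.285). It fell to 93.3, 106 and 88.8 FPKM with tunicamycin and to 51.5, 50.2 and 50.9 FPKM with both. LPS lowered Itgb2 in tunicamycin-treated cells (-0.90 ± 0.11 in log2, adjusted p = 1.11e-05), and the interaction, which tests that difference, was -1.08 ± 0.15 (adjusted p = 0.000369). Angptl2, a secreted angiopoietin-like protein, dropped from 71.7 ± 5.07 FPKM to 52 ± 6.32 FPKM with LPS, 14.8 ± 0.0362 FPKM with tunicamycin and 4.06 ± 0.303 FPKM with both (interaction -1.18 ± 0.18, adjusted p = 0.00096). On the FPKM scale its excess was 8.97 ± 4.32 FPKM (SE; adjusted p = 0.384), of the opposite sign and not past the test; the 2 single losses together exceed the control level.

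Gnb5, a G-protein beta subunit, and Mitd1, an abscission factor, were lowered by neither agent alone past the test and were lower with both. Gnb5 was at 3.42 to 4.26 FPKM in control, 4.13 to 5 FPKM with LPS and 3.34 to 4.3 FPKM with tunicamycin, and at 1.79, 1.02 and 1.1 FPKM with both (interaction -1.24 ± 0.29, adjusted p = 0.0265). Mitd1 had an interaction of -1.15 ± 0.28, Hacd4, a dehydratase of fatty acid elongation, of -1.22 ± 0.30, and Tmem238, a membrane protein, of -1.16 ± 0.29. The call of Gnb5 was lost in 7 of the 20 settings that tested it. Those of Mitd1, Hacd4 and Tmem238 were lost in 10, 11 and 12 of 21 settings, while those of Itgb2 and Angptl2 were lost in none. The class itself held 2 genes without tunicamycin replicate 3, 4 without LPS replicate 1, without LPS replicate 2 or without tunicamycin replicate 2, 5 without control replicate 1 and 15 without joint replicate 2.

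Interferon-induced antiviral genes were among the most negative interactions that passed. Ifit3, Ifit2 and Ifit1, which encode proteins that bind viral RNA, Rsad2, the antiviral enzyme viperin, and Cxcl10, an interferon-induced chemokine, were each raised by LPS and, less, by tunicamycin, and with both agents lay below the level with LPS alone on average. Stretches of 220 bases ending just before the annotated start, from RefSeq on GRCm38.p6, are shown for 4 of them because capitals mark the motif of the interferon-stimulated response element (ISRE, searched on both strands as TTTC, any 2 bases and TTTC), and for Hspa5, a gene with no detected interaction taken up below, with its ER stress response element (ERSE: CCAAT, any 9 bases and CCACG).
Ifit1, chr19:34640669-34640888, plus strand: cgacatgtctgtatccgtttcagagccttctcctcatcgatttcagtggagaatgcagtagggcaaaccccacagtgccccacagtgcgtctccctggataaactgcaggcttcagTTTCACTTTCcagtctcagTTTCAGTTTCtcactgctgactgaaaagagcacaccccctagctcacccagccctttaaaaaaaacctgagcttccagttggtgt
Ifit3, chr19:34583309-34583528, plus strand: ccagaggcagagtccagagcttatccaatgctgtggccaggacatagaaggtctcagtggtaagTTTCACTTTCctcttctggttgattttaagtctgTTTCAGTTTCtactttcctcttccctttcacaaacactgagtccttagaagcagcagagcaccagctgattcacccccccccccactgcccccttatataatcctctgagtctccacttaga
Rsad2, chr12:26456453-26456672, minus strand: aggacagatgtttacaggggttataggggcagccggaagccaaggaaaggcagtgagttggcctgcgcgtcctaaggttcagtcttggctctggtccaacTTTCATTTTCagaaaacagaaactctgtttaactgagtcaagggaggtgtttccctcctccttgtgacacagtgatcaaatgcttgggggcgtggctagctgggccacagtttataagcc
Cxcl10, chr5:92348890-92349109, minus strand: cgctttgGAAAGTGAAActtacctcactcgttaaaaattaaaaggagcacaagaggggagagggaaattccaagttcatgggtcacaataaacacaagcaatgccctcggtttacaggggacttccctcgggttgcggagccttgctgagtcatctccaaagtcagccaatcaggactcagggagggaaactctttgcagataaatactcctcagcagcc
Hspa5, chr2:34771870-34772089, plus strand: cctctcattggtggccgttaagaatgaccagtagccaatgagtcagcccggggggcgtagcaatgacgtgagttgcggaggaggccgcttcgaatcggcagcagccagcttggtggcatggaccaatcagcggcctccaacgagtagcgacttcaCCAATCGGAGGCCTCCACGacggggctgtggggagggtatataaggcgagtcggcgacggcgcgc
The motif lies on the strand of the gene in Ifit1, Ifit3 and Rsad2, with 2, 2 and 1 matches, and on the opposite strand in Cxcl10. The window of Ifit2 held no match of these letters, and its sequence is not shown. Within 250 bases before to 50 after the start, the ISRE letters were in 15 of 65 promoters of the antagonised rises that the table held (23.1%), in 4 of 69 of the saturated rises (5.8%) and in 313 of 7953 promoters of all genes tested (3.94%). The ERSE letters were in 13 of the 7953 (0.163%). The other motifs searched were those of NF-kB, AP-1 (TGANTCA), the ATF4 and CHOP composite site (TGATGNAA) and the XBP1 site (TGACGTGG), present in 12.1%, 6.1%, 2.8% and 1.06% of all promoters. The NF-kB motif was in 21.5% of antagonised and 21.7% of saturated rises, and among 15 synergistic rises with a promoter it was in 5, as was the AP-1 motif (33.3% each). Matches of different motifs may overlap. A match is a description of these letters and not a measured binding site.

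Ifit3 (chromosome 19, 34583531 to 34588731, plus strand) read 0.415, 1.23 and 1.21 FPKM in control, 18.7, 65 and 35.4 FPKM with LPS, 5.87, 10.04 and 9.63 FPKM with tunicamycin and 13.1, 10.01 and 7.17 FPKM with both. The joint libraries overlapped those with tunicamycin alone and lay below all LPS libraries. The interaction was -4.02 ± 0.49 (adjusted p = 0.000114): LPS raised Ifit3 by 4.24 ± 0.35 in log2 without tunicamycin and by 0.22 ± 0.35 after it, where the effect did not pass (adjusted p = 0.739). Ifit2 read 79.1, 299 and 144 FPKM with LPS and 53.7, 73.5 and 44.1 FPKM with both, from 1.98 ± 1.52 FPKM in control and 13.6 ± 3.21 FPKM with tunicamycin (interaction -3.80 ± 0.54, adjusted p = 0.000445).

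Cxcl10 (chromosome 5, 92346638 to 92348889, minus strand) read 3.08, 1.34 and 3.52 FPKM in control and 25.8, 27.1 and 16.3 FPKM with tunicamycin. It reached 1345, 2332 and 1623 FPKM with LPS and 945, 862 and 815 FPKM with both, so that the joint libraries lay below every LPS library and far above the rest. The joint level was 1.97-fold lower than with LPS (adjusted p = 0.00496) while the sum of the single log2 effects put it at 11558 FPKM (interaction -3.73 ± 0.33, adjusted p = 4.17e-06). Rsad2 and Ifit1 had interactions of -3.23 ± 0.45 and -3.17 ± 0.43, but their joint levels of 217 ± 31.3 FPKM and 187 ± 20.4 FPKM did not pass against LPS alone at 374 ± 212 FPKM and 331 ± 156 FPKM (adjusted p = 0.159 and 0.085). For these genes LPS replicate 2 was the highest and replicate 1 the lowest LPS library.

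LPS alone raised 31 of 42 tested members of the list of type I interferon response genes past the test, beside 10.5% of all genes. Tunicamycin alone raised 30 of the 42, beside 17.9% of all genes. The interaction passed in 15 of the 42 (35.7%, beside 3.37% over all genes), all 15 negative, with a median of -1.03 beside -0.03. By class, 9 were antagonised and 6 saturated rises. The saturated ones included Cmpk2, a mitochondrial nucleotide kinase (-3.01 ± 0.46), and Usp18, which removes the modifier ISG15 (-2.09 ± 0.48, a call lost in 7 of 21 settings). Ifnb1, interferon beta itself, was listed at 0 in all control and tunicamycin libraries, at 2.99, 4.36 and 1.89 FPKM with LPS and at 3.73, 4.76 and 0 FPKM with both, and no interaction was detected (adjusted p = 0.848). On the untransformed FPKM scale, where additivity means that FPKM changes sum, 2 members of the list passed as negative and 1 as positive, and none of Ifit1, Ifit2, Ifit3, Rsad2 and Cxcl10 passed.

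Antagonised rises outside the interferon list included feedback regulators and cytokines. Cd69, an early activation receptor, read 301, 511 and 354 FPKM with LPS and 212, 179 and 204 FPKM with both, from 0.225 to 1.46 FPKM in control and 8.73 to 16 FPKM with tunicamycin (interaction -3.76 ± 0.34, adjusted p = 4.47e-06). Its tunicamycin effect passed as a rise alone (2.83 ± 0.24) and as a fall in the presence of LPS (-0.93 ± 0.24). Il1b, interleukin-1 beta (chromosome 2, 129364570 to 129371139, minus strand), read 815, 784 and 819.7 FPKM with LPS and 347, 271 and 253 FPKM with both, and was at or under 0.775 FPKM in the other 6 libraries. Its joint libraries all lay under the LPS libraries, 2.79-fold lower on average (adjusted p = 1.63e-06), and the interaction was -1.27 ± 0.21 (adjusted p = 0.00153), or -0.90 (adjusted p = 0.266) with a pseudocount of 0.1. In FPKM the shortfall was -515 ± 28.7 FPKM (adjusted p = 8.06e-06).

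Socs1 and Socs3, inhibitors of cytokine receptor signalling, also fell short. Socs3 read 1.73, 2.07 and 1.6 FPKM in control, 3.39, 3.25 and 2.94 FPKM with tunicamycin, 93.9, 119 and 122 FPKM with LPS and 44.2, 49.8 and 48.7 FPKM with both, 4 groups that did not overlap (interaction -1.79 ± 0.21, adjusted p = 6.87e-05). Socs1 was at 31.3 ± 9.91 FPKM with LPS and 6.34 ± 1.01 FPKM with both (interaction -2.22 ± 0.40, adjusted p = 0.00395, or 0.0632 with a pseudocount of 0.1). Ptges, the inducible prostaglandin E synthase, was at 20.8 ± 2.67 FPKM with LPS and 9.17 ± 2.74 FPKM with both (interaction -2.34 ± 0.39, adjusted p = 0.0018). Nfe2l2, the gene of the antioxidant regulator NRF2, rose with LPS from 69.4 ± 6 FPKM to 188 ± 26.3 FPKM, stood at 71.4 ± 0.928 FPKM with tunicamycin and reached 104 ± 5.27 FPKM with both (interaction -0.88 ± 0.15, adjusted p = 0.00255).

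In 19 genes of the class tunicamycin was the stronger agent. Gadd45a, a growth arrest gene (chromosome 6, 67035096 to 67037457, minus strand), read 2.92, 5.39 and 6.18 FPKM in control, 7.73, 7.47 and 5.73 FPKM with LPS and 126, 171 and 177 FPKM with tunicamycin. With both it read 71.4, 44.4 and 45.8 FPKM, below every tunicamycin library (interaction -2.04 ± 0.32, adjusted p = 0.00106). LPS thus lowered Gadd45a by 2.93-fold in tunicamycin-treated cells (adjusted p = 0.000117), and its effect without tunicamycin did not pass (adjusted p = 0.164).

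Among genes that an agent lowered alone and that were less low with both were regulators of growth signalling. Dusp6, a phosphatase that switches off ERK (chromosome 10, 99263231 to 99267489, plus strand), read 32, 40.2 and 32.7 FPKM in control, 5.43, 2.4 and 3.87 FPKM with LPS, 2.24, 2.68 and 2.86 FPKM with tunicamycin and 5.53, 6.93 and 5.95 FPKM with both. The joint libraries lay above all those with a single agent, though the difference from LPS did not pass (adjusted p = 0.0552). LPS lowered Dusp6 by 7.55-fold in untreated cells and raised it by 1.98-fold in tunicamycin-treated cells (adjusted p = 2.78e-08 and 0.00505), and the interaction was 3.90 ± 0.31 (adjusted p = 1.1e-06). The sum of its single log2 effects falls at -0.525 FPKM, a level below 0 that no library can reach.

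Id1, which keeps helix-loop-helix transcription factors from binding DNA (chromosome 2, 152736251 to 152737410, plus strand), read 48.9, 38.9 and 58.8 FPKM in control, 9.97, 11.6 and 9.63 FPKM with LPS, 0.71, 1.54 and 0.667 FPKM with tunicamycin and 2.73, 1.92 and 2.73 FPKM with both. LPS lowered it in untreated cells (-2.11 ± 0.22 in log2) and raised it after tunicamycin (0.83 ± 0.22, adjusted p = 0.0146; interaction 2.94 ± 0.31). Myc, the growth transcription factor (chromosome 15, 61985391 to 61990374, plus strand), read 31.6, 38.5 and 37.6 FPKM in control, 18.1, 9.02 and 11.6 FPKM with LPS, 13.8, 16.7 and 13.7 FPKM with tunicamycin and 27.1, 26.3 and 28.5 FPKM with both. Each agent lowered Myc (-1.45 ± 0.19 and -1.23 ± 0.19 in log2), but in the presence of the other each raised it (0.85 ± 0.19 for LPS and 1.08 ± 0.19 for tunicamycin, adjusted p = 0.00505 and 0.000451), and the joint level did not pass against control (adjusted p = 0.123; interaction 2.31 ± 0.27, adjusted p = 6e-05). On the FPKM scale the interaction of Myc also passed, at 35.6 ± 3.41 FPKM (adjusted p = 0.000416). Dusp7, another ERK phosphatase, had an interaction of 2.86 ± 0.41 (adjusted p = 0.000465), from 16.3 ± 4.88 FPKM in control to 4.68 ± 1.01 FPKM with both. For Id1 and Dusp7, as for Dusp6, the sum of the single log2 effects lay below 0 FPKM (-0.553 FPKM and -0.226 FPKM), so that only a positive interaction was possible.

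A survival gene and a chemotaxis receptor fell with tunicamycin alone and were higher when LPS followed. Bcl2l1, whose main product is the survival protein BCL-XL (chromosome 2, 152780668 to 152831728, minus strand), read 81.2, 91.6 and 82.3 FPKM in control, 113, 132 and 122 FPKM with LPS, 14.1, 12.7 and 11.7 FPKM with tunicamycin and 70.6, 71.1 and 65.3 FPKM with both. The LPS effect was 0.52 ± 0.11 in untreated and 2.34 ± 0.11 in tunicamycin-treated cells (interaction 1.82 ± 0.15, adjusted p = 1.7e-06). C5ar1, the receptor of complement C5a, went from 581 ± 37.3 FPKM to 33.6 ± 6.39 FPKM with tunicamycin and 156 ± 32.4 FPKM with both (interaction 1.84 ± 0.21, adjusted p = 5.07e-05), but its FPKM change with both was -36 ± 47.3 FPKM from the sum of the single changes and did not pass (adjusted p = 0.839). Gpr34, a lysophospholipid receptor, had an interaction of 1.30 ± 0.29 (adjusted p = 0.0191, lost in 5 of 21 settings). Mogs, the glucosidase that trims the first glucose from N-glycans, was the only member to pass of 35 on the N-glycosylation list (2.86%, near the 3.37% over all genes), at 1.67 ± 0.41, and its call was lost in 9 of 21 settings.

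The other large values of antagonised fall came with unevenly spread libraries. Gna12, a G-protein alpha subunit, read 56.3, 36.8 and 17.5 FPKM in control and 37, 19 and 7.04 FPKM with tunicamycin, and Ybx3, a cold-shock RNA-binding protein, read 65.6, 64 and 19.2 FPKM and 36.7, 11.8 and 5.8 FPKM. Their interactions were 2.91 ± 0.69 and 2.84 ± 0.71, with calls lost in 11 and 14 of 21 settings. Rap2a, a small GTPase, had a like spread with tunicamycin (36.2, 28.4 and 13.4 FPKM) but tight LPS libraries (9.37, 9.08 and 9.33 FPKM), and its interaction of 2.64 ± 0.34 (adjusted p = 0.000174) was kept in all 21. Across the class, 33 genes were counted without control replicate 1 or without control replicate 2, 35 without tunicamycin replicate 3 or without joint replicate 3, 36 without LPS replicate 2, and 20 without both control replicate 2 and joint replicate 3.

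Gpr84, a receptor for medium-chain fatty acids (chromosome 15, 103308235 to 103310612, minus strand), had the most negative interaction of the saturated rises. It read 15.6, 19.99 and 17.2 FPKM in control, 167, 180.1 and 154 FPKM with tunicamycin, 578, 603 and 535 FPKM with LPS and 481, 519 and 510.1 FPKM with both. Tunicamycin raised Gpr84 by 9.06-fold in untreated cells (adjusted p = 7.21e-13), whereas tunicamycin before LPS did not pass against LPS alone (-0.18 ± 0.10 in log2, adjusted p = 0.181). The interaction of -3.36 ± 0.14 (adjusted p = 4.33e-10) had the lowest adjusted p of the genes named. Its FPKM excess was also negative, -218 ± 23.6 FPKM (adjusted p = 0.000756), so the joint level was under both sums.

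Il4i1, a secreted amino acid oxidase, Rnd1, a small GTPase, and Arl5c, an ARF-like GTPase, were low in control and raised by each agent, with interactions of -2.73 ± 0.31, -2.09 ± 0.34 and -2.19 ± 0.27. Arl5c was higher with tunicamycin before LPS than with LPS alone (46.9 ± 10.9 FPKM to 73.7 ± 16.6 FPKM, adjusted p = 0.0208), while Il4i1 and Rnd1 did not pass there (adjusted p = 0.284 and 0.549). Signalling genes of the TLR4 pathway had this shape too. Ticam2, which encodes the adaptor TRAM, read 6.19, 7.4 and 7.69 FPKM in control, 19.8, 18.2 and 26 FPKM with LPS, 76.5, 76.9 and 82.2 FPKM with tunicamycin and 75, 86.1 and 73.6 FPKM with both, so that no LPS effect was detected after tunicamycin (-0.01 ± 0.14 in log2, adjusted p = 0.982; interaction -1.46 ± 0.20). Ikbke, the kinase IKK-epsilon, and Map3k8, the kinase TPL2 upstream of ERK, had interactions of -1.16 ± 0.19 and -1.59 ± 0.31 (adjusted p = 0.00168 and 0.00763).

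Of 26 tested members of the TLR4 sensing and signalling list, 4 were negative and 1 positive (19.2% passing, beside 3.37%), with a median of -0.13. On the FPKM scale 1 was negative and 0 positive, and without control replicate 2 and joint replicate 3 the log2 counts were 4 and 0. Tlr4 itself fell with LPS from 22 ± 1.66 FPKM to 5.94 ± 0.675 FPKM and was at 19.3 ± 1.88 FPKM with tunicamycin and 8.87 ± 2.95 FPKM with both, and its interaction of 0.65 ± 0.27 did not pass (adjusted p = 0.249). On the list of NF-kB feedback and LPS effector genes, 20 of 39 passed (51.3%), 18 negative and 2 positive, with a median of -1.02, and 11 negative and 2 positive passed on the FPKM scale. LPS alone raised 38 of the 39 past the test and tunicamycin alone 22, beside 10.5% and 17.9% of all genes. By class, 10 of the 20 were saturated and 6 antagonised rises. Fas, the death receptor (-1.61 ± 0.17), Cd274, the checkpoint ligand PD-L1 (-1.05 ± 0.24, lost in 9 of 21 settings), and Nr1h3, the oxysterol receptor LXR-alpha (-1.09 ± 0.21), were saturated rises of other lists. Fas and Cd274 were nonetheless higher with both agents (87.9 ± 6.8 FPKM and 87.7 ± 9.91 FPKM) than with LPS alone (50.7 ± 4.27 FPKM and 54.2 ± 10.3 FPKM; adjusted p = 0.000124 and 0.00605). Nr1h3 was instead lower with both (29.5 ± 4.78 FPKM) than with LPS alone (41.8 ± 2.39 FPKM, limma adjusted p = 0.0179), and stood at 31.8 ± 6.25 FPKM with tunicamycin.

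Saturated falls were genes that each agent lowered alone and that with both were not clearly above the level of the stronger agent. Jun, the AP-1 subunit (chromosome 4, 95049034 to 95052222, minus strand), read 72, 68.9 and 63.3 FPKM in control, 20.2, 16.9 and 22.8 FPKM with LPS, 9.54, 14.5 and 12.3 FPKM with tunicamycin and 14.1, 14.9 and 19.7 FPKM with both. The joint libraries overlapped the tunicamycin libraries and neither agent changed Jun further past the test once the other was present (adjusted p = 0.129 and 0.22; interaction 2.13 ± 0.24, adjusted p = 5.03e-05). Rab3il1, a Rab exchange factor, kept falling, from 17.1 ± 1.35 FPKM with LPS and 14.3 ± 1.92 FPKM with tunicamycin to 8.98 ± 0.956 FPKM with both (adjusted p = 0.000168 against LPS).

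The receptors Gpr183 (oxysterol) and P2ry1 (ADP), and the mRNA decay factor Zfp36l2, had interactions of 2.10 ± 0.40, 1.80 ± 0.33 and 1.84 ± 0.33. For Gpr183 and P2ry1 the sum of the single log2 effects lay below 0 FPKM, so a positive interaction was the only outcome such falls could have. That of Gpr183 missed the threshold with a pseudocount of 0.1 (1.73, adjusted p = 0.262). Without control replicate 2, tunicamycin replicate 2 or tunicamycin replicate 3, 25 saturated falls were counted, and 24 without LPS replicate 1.

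The agents pushed against each other in the genes of the CC chemokines that attract monocytes and other leukocytes. Ccl2 (chromosome 11, 82035571 to 82037453, plus strand) read 379, 604 and 454 FPKM in control, 16.3, 18.8 and 13.6 FPKM with tunicamycin, 1622, 2156 and 1853 FPKM with LPS and 907, 853 and 890.4 FPKM with both. The 4 groups did not overlap, and the joint level was above control and below LPS. LPS raised Ccl2 by 3.96-fold in untreated cells and by 51.7-fold in tunicamycin-treated cells, an interaction of 3.71 ± 0.21 (adjusted p = 2.7e-08).

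Ccl7, Ccl4 and Ccl3, other CC chemokines, had the same signs. Ccl7 was at 509 ± 91.4 FPKM in control, 30.4 ± 2.17 FPKM with tunicamycin, 2540.1 ± 455 FPKM with LPS and 1189.98 ± 112 FPKM with both (interaction 2.93 ± 0.19, adjusted p = 1.35e-07). Ccl4 reached 8239 ± 704 FPKM with LPS and 6681 ± 325 FPKM with both, which did not pass against LPS (adjusted p = 0.126), although tunicamycin alone had lowered it from 317 ± 38.3 FPKM to 45.3 ± 11.5 FPKM (interaction 2.5 ± 0.20). Ccl3 behaved like Ccl4, with an interaction of 1.44 ± 0.20. In FPKM the joint levels were under the sum of the single changes for Ccl2 (-531 ± 165 FPKM), Ccl7 (-871 ± 263 FPKM), Ccl4 (-1286 ± 609 FPKM) and Ccl3 (-555 ± 451 FPKM), and none of these passed (adjusted p = 0.142, 0.129, 0.369 and 0.677). The 4 chemokines thus exceeded the product of the single folds, while no departure from the sum was detected in FPKM.

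Plk2, a polo-like kinase, was lowered by tunicamycin from 53.7 ± 5.29 FPKM to 25.1 ± 3.42 FPKM and raised by LPS to 143 ± 11.7 FPKM, and reached 183 ± 3.76 FPKM with both, above LPS alone (adjusted p = 0.0273; interaction 1.43 ± 0.16). Cd14, the LPS co-receptor, had a smaller interaction of 0.66 ± 0.13 (adjusted p = 0.00669), with 1595 ± 28.8 FPKM with LPS and 1183 ± 86 FPKM with both. Ssh2, a phosphatase of the actin regulator cofilin, was the case with the roles exchanged. It read 6.44, 7.23 and 5.28 FPKM in control, 0.996, 0.524 and 1.05 FPKM with LPS, 10.9, 12 and 14 FPKM with tunicamycin and 12.4, 14.9 and 13.1 FPKM with both, so the fall with LPS was not seen after tunicamycin (0.12 ± 0.20 in log2, adjusted p = 0.736; interaction 2.11 ± 0.28).

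The 4 opposed genes with a negative interaction were Il21r, Oaf, Stim2 and Zfp36. Il21r, the interleukin-21 receptor (chromosome 7, 125603429 to 125633570, plus strand), read 17.8, 18 and 16.7 FPKM in control, 9.77, 10.1 and 8.94 FPKM with LPS, 44.9, 47.4 and 47.8 FPKM with tunicamycin and 6.95, 10.3 and 9.19 FPKM with both. The rise with tunicamycin was thus absent when LPS followed, where the joint level did not pass against LPS alone (adjusted p = 0.568; interaction -1.49 ± 0.21, adjusted p = 0.0004). Zfp36, or tristetraprolin, which destabilises cytokine mRNAs, rose with LPS from 32.3 ± 1.53 FPKM to 179 ± 31.5 FPKM, fell with tunicamycin to 20.4 ± 0.392 FPKM and was at 43.5 ± 5.03 FPKM with both (interaction -1.37 ± 0.18, adjusted p = 0.000271). Oaf went from 2.13 ± 1.07 FPKM to 26.5 ± 6.97 FPKM with LPS and stood at 1.09 ± 1.09 FPKM with both, and Stim2, an ER calcium sensor, from 7.44 ± 1.1 FPKM to 19.9 ± 3.2 FPKM and 2.35 ± 0.956 FPKM.

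**Figure D3:**
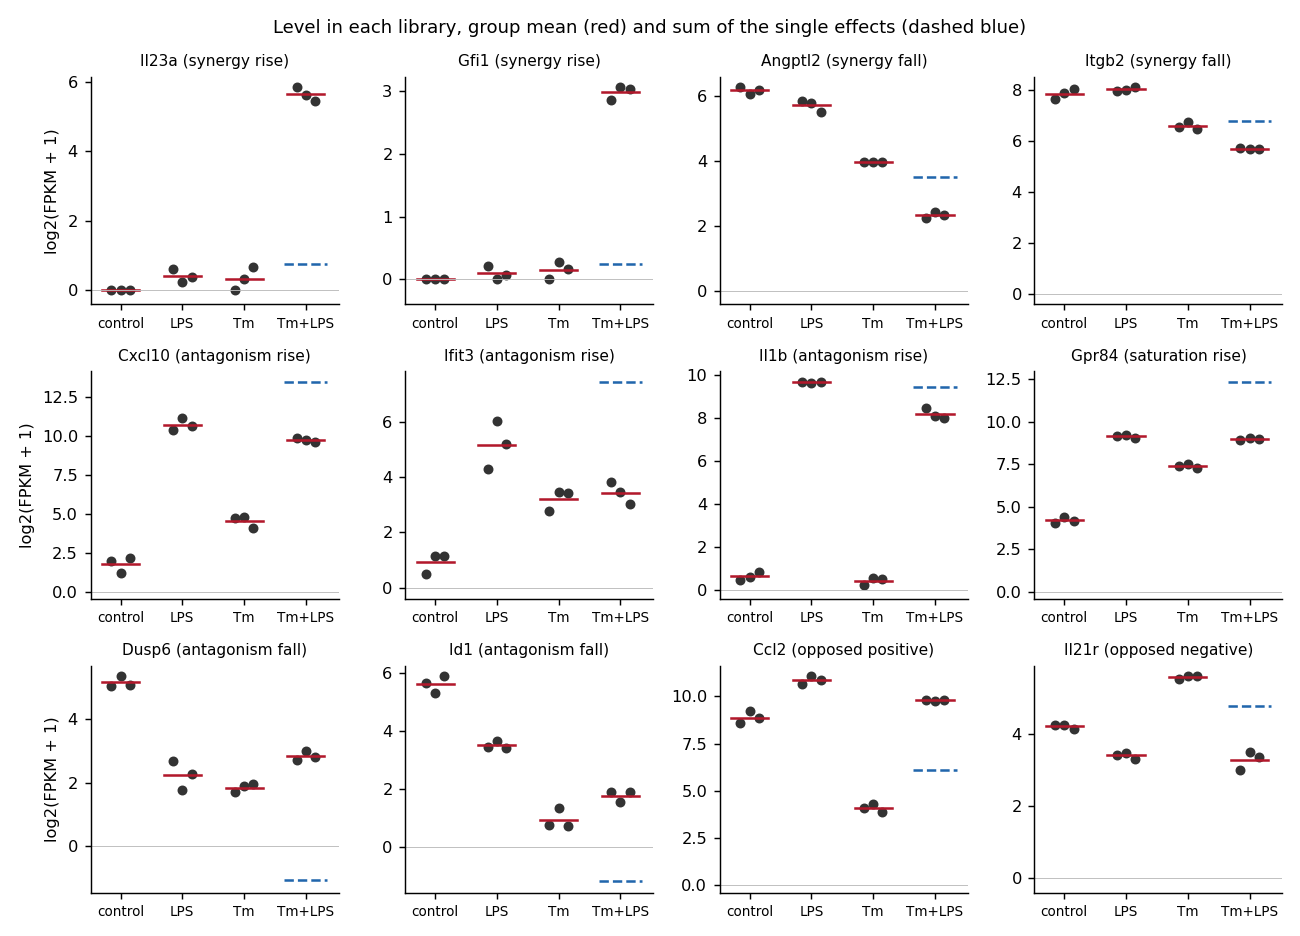
Level of 12 genes of the classes in each library (points, log2 of FPKM + 1), with the group mean (red line) and, over the joint group, the sum of the single log2 effects (dashed blue line). In Il23a, Gfi1 and Ccl2 the joint libraries lie above the dashed line, in Cxcl10, Ifit3, Il1b and Gpr84 below it, and for Dusp6 and Id1 the dashed line is below 0.

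No interaction was detected for Hspa5, Xbp1, Atf4, Ddit3 and Trib3 of the unfolded protein response, whereas Herpud1, Ppp1r15a and Atf3, described below, passed. Hspa5 (chromosome 2, 34771970 to 34777547, plus strand), which encodes BiP, the main chaperone of the ER lumen,, read 765, 912 and 845 FPKM in control, 1110.4, 1233 and 1250.4 FPKM with LPS, 7233, 10562 and 10986 FPKM with tunicamycin and 14851, 11578 and 14163 FPKM with both. Its LPS effect was 0.51 ± 0.14 in log2 without tunicamycin and 0.51 ± 0.14 with it, and the interaction was -8.9e-06 with an SE of 0.19 (adjusted p = 1). Xbp1, the transcription factor spliced by IRE1, had an interaction of 0.07 ± 0.12 (adjusted p = 0.86) and Atf4 of -0.38 ± 0.17 (adjusted p = 0.292). Ddit3, the gene of CHOP, was at 1601 ± 145 FPKM with tunicamycin and 1093 ± 230.1 FPKM with both, a fall with LPS that passed (-0.57 ± 0.15, adjusted p = 0.0143), but the interaction of -0.46 ± 0.21 did not (adjusted p = 0.308).

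None of 28 tested genes on the ER chaperone and folding list and none of 32 on the ER-associated degradation and export list passed the limma interaction. At an unadjusted p under 0.05 there were 3 and 2, and the medians were -0.01 and 0.05. Herpud1, also a degradation gene, was placed on the ATF4 and CHOP list and is not among the 32. On the FPKM scale, 1 chaperone gene passed as positive, and 1 degradation gene passed in each direction. A p that misses the threshold does not show additivity gene by gene. In simulated data, interactions of 1.5-, 2- and 4-fold were recovered in 11.9%, 37.3% and 86.4% of the changed genes, which left out genes of low mean level. On the ATF4 and CHOP list, Herpud1 and Ppp1r15a were negative and Mars positive, 3 of 39 (7.69%, beside 3.37% over all genes), with a median of 0.05. On the FPKM scale 7 of its members passed as positive and 1, Trib3, as negative. Atf3, a stress and TLR feedback factor, was at 257 ± 33.4 FPKM with tunicamycin and 222 ± 13.6 FPKM with both (interaction -0.61 ± 0.15, adjusted p = 0.0336, lost in 11 of 21 settings).

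Herpud1, an ER membrane protein of the degradation complex, and Ppp1r15a, or GADD34, which restores translation by reversing the phosphorylation of eIF2-alpha, differed in sign between the log2 and FPKM scales. Herpud1 read 19.4, 13 and 17.8 FPKM in control, 84.8, 68.3 and 66.5 FPKM with LPS, 915, 994 and 1031 FPKM with tunicamycin and 1378, 1412 and 1438 FPKM with both. Its log2 interaction was -1.55 ± 0.18 (adjusted p = 5.33e-05), since 4119.6 FPKM would follow from multiplying the folds, yet in FPKM the joint level exceeded the sum of the single changes by 373 ± 66 FPKM (adjusted p = 0.0125). Ppp1r15a read 16.4, 18.2 and 15.7 FPKM, 81.8, 86.8 and 95.3 FPKM, 262, 288 and 273 FPKM and 652, 574 and 599 FPKM in the same order, with -1.18 ± 0.13 in log2 (adjusted p = 5.21e-05) and 263 ± 22.9 FPKM in FPKM (adjusted p = 0.000199). Both lay below the product of the folds and above the sum of the FPKM changes.

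Csf1, the gene of M-CSF (chromosome 3, 107741048 to 107760469, minus strand), read 4.68, 3.7 and 6.81 FPKM in control, 34.1, 46.8 and 47.5 FPKM with LPS, 34.9, 37.7 and 35.6 FPKM with tunicamycin and 236, 277 and 236 FPKM with both. Every joint library lay far above the other 9. The LPS folds were close to each other, at 2.87 ± 0.17 in log2 without and 2.75 ± 0.17 with tunicamycin (interaction -0.12 ± 0.24, adjusted p = 0.877), while in FPKM the excess over the sum was 176 ± 13 FPKM (adjusted p = 5.83e-05). Trib3, a pseudokinase induced by CHOP, was the reverse case: LPS lowered it from 378 ± 9.26 FPKM to 229 ± 9.79 FPKM in tunicamycin-treated cells and had lowered it in untreated cells too (-0.72 ± 0.15 and -0.86 ± 0.15 in log2; interaction 0.14 ± 0.21, adjusted p = 0.83), a shortfall of -147 ± 7.41 FPKM in FPKM (adjusted p = 3.46e-06). Sqstm1, the autophagy receptor p62, was at 3365 ± 386 FPKM with LPS, 3364 ± 217 FPKM with tunicamycin and 8431 ± 1585 FPKM with both, with -1.03 ± 0.16 in log2 (adjusted p = 0.0011) and an FPKM excess of 2362 ± 960.3 FPKM that did not pass (adjusted p = 0.275).

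Across all genes tested, 301 passed on the FPKM scale, 162 positive and 139 negative, and 158 of them were also among the 347 on the log2 scale. The sign was opposite in 5 of the 158. A further 82 genes were positive in FPKM and did not pass in log2, and in 23 of these, Csf1 among them, each agent alone had raised the gene past the test (over all genes, 10.5% rose with LPS and 17.9% with tunicamycin). Of the 89 saturated rises, 14 had a joint level above the sum of FPKM changes.

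**Figure D4:**
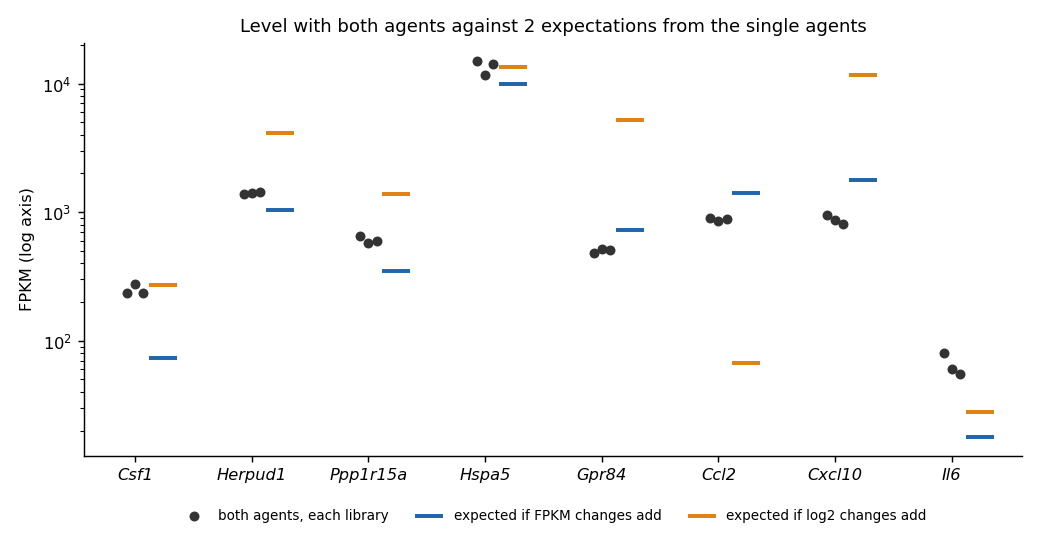
FPKM with both agents in each library (points, log axis) for 8 genes, beside the level expected if FPKM changes add (blue) and if log2 changes add (orange). Csf1 and Hspa5 lie near the orange mark, Herpud1 and Ppp1r15a between the marks, Gpr84 and Cxcl10 below both, and Il6 above both.

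LPS alone raised 30 of 34 tested members of the cytokine and chemokine list past the test, beside 10.5% of all genes. The interaction passed in 12 of the 34 (35.3%, beside 3.37% over all genes), 8 positive and 4 negative, with a median of -0.27. The positive ones were 4 synergistic rises and 4 opposed genes, and the negative ones 2 antagonised and 2 saturated rises, so the list held each of the rising shapes. On the FPKM scale 5 were positive and 1 negative. Tnf, tumour necrosis factor, was at 692, 813 and 723 FPKM with LPS and 1177, 977 and 988 FPKM with both, higher than LPS alone (0.49 ± 0.16, adjusted p = 0.029), with an interaction of -0.39 ± 0.23 (adjusted p = 0.458). Il12b, the p40 subunit shared by interleukins 12 and 23, was at 21, 14.6 and 50.6 FPKM with LPS and 126, 21.5 and 41.2 FPKM with both, too spread to tell (interaction 0.26 ± 0.67, adjusted p = 0.908). Il10 was below the level tested, with up to 1.84 FPKM in the LPS libraries and 0 listed in all joint libraries.

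The list of MAP kinase phosphatases and early genes had 7 positive and 6 negative members of 28 (46.4% passing, beside 3.37% over all genes). Their median was 0.02, and 7 were positive and 2 negative on the FPKM scale. LPS alone raised 13 of the 28 past the test and lowered 8. Dusp6, Id1 and Myc were antagonised falls and Jun a saturated fall, whereas negative members such as Atf3 were genes that an agent raised. Without control replicate 2 and joint replicate 3, 7 were positive and 3 negative. Homeostatic and scavenger genes had 4 positive members of 25 (16%), median 0.11, with C5ar1 and Gpr34 among them, and 2 when control replicate 1, LPS replicate 1, LPS replicate 3 or tunicamycin replicate 2 was left out. Macrophage markers had 2 positive of 10 (20%), Cd14 among them, with a median of 0.11.

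Apoptosis and survival genes had 2 positive and 2 negative members of 26 (15.4%), among them Bcl2l1, Fas and Gadd45a, with a median of -0.16. The NRF2 target list had 2 negative of 21 (9.52%), Nfe2l2 and Sqstm1, and a median of -0.01. The list of mRNA decay factors had 1 in each direction of 23 (8.7%), Zfp36l2 and Zfp36, and a median of 0.01. Inflammasome and pyroptosis genes had 1 negative of 19 (5.26%), Il1b, and a median of -0.14, and antigen presentation and costimulation genes 1 negative of 22 (4.55%), Cd274, and a median of -0.19. Cholesterol genes had 1 negative of 30 (3.33%), Nr1h3, with a median of 0.04, proliferation genes 1 positive of 33 (3.03%), with a median of -0.0013, and the glycolysis list a median of 0.14. The proliferation gene was Cdt1, which licenses replication origins, at 0.87 ± 0.22 (adjusted p = 0.034, lost in 13 of 21 settings). The shares for cholesterol, proliferation, glycolysis and N-glycosylation genes were thus near the 3.37% over all genes.

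**Figure D5:**
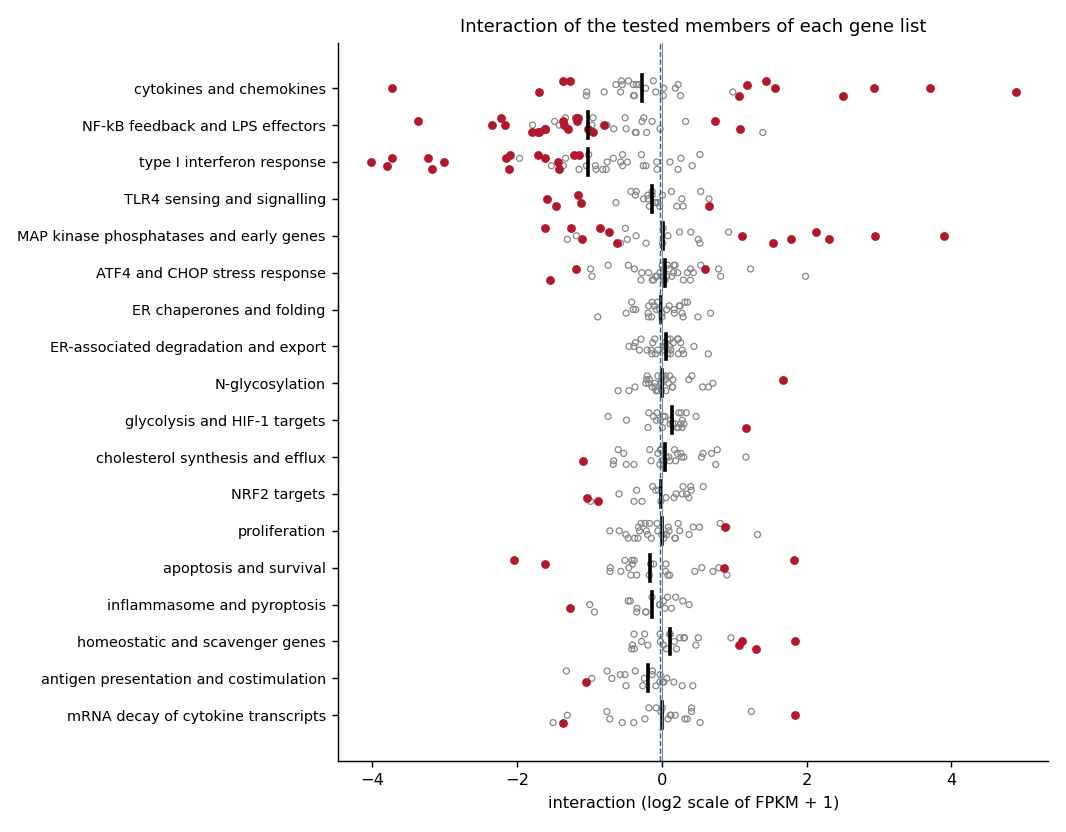
Interaction (log2 scale of FPKM + 1) of each tested member of 18 gene lists, with red points for genes that passed, open points for those that did not, black bars for list medians and a dashed line for the median of all genes. Medians of the interferon list (-1.03) and the NF-kB list (-1.02) lie left of the others. No gene of the ER chaperone or ER degradation lists is red, and Herpud1 is shown on the ATF4 and CHOP list.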

How the data were processed

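RNA-seq was analysed in 12 libraries of wild-type mouse bone-marrow-derived macrophages, grouped from the labels, with 3 each of control, LPS, tunicamycin and tunicamycin with LPS. The values are gene FPKM as the authors deposited them, in 1 table. The submitters' processing notes name Cufflinks 2.2.1, SAMtools 0.1.19, the aligners Bowtie2 2.2.3 and TopHat2 2.0.13 and the mm10 build. Their settings and whether libraries were scaled to each other are not given in the sources used here. FPKM summed to 561108 to 685010 per library, and 9507 to 9741 genes were at 1 FPKM or more. Low FPKM values did not resolve into whole reads, so the number of reads is unknown, no counting interval is given and no count test was run.

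Genes entered the tests if 3 or more libraries had FPKM of 1 or higher. Values were taken as log2(FPKM + 1) and fitted over the 4 groups with limma 3.58.1 in R 4.3.3 (lmFit, contrasts, eBayes with trend). P-values are two-sided and were adjusted by Benjamini-Hochberg over all 10311 genes, per contrast. "Passed" means an adjusted p under 0.05, a ± beside a log2 value or an FPKM excess is its SE, and a ± beside a group mean is the SD (n = 3). Contrasts against the same control, LPS or tunicamycin libraries share those libraries and are not independent. The FPKM-scale fit used untransformed FPKM with trend and robust eBayes. The fit was tested on simulated data (200 changed genes, 10311 tested), where 3.23% of calls were false. The share of false calls in the measured libraries was not tested.

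The genes named are the 6 largest interactions with a standard symbol in each class and direction, up to 3 largest passing members of each gene list, and a fixed set of cytokine, feedback and ER stress genes; a few that the rule names are not reported here. The members, classes and gene lists were chosen with earlier results of these data known. Gene positions are from GENCODE M21 (23310 of 24346 symbols matched), and promoters from RefSeq on GRCm38.p6 (7953 of 10311 genes; 1626 with more than 1 promoter). Other settings tried were another pseudocount, filter, scaling, eBayes option, scale and class margin, the replicate number as a block, and leaving out each library.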

Additional observations from a re-analysis of the deposited data

Results flagged for a closer look

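The effect of an agent passed the limma test in one direction without the other agent and in the opposite direction with it in the genes given here, and the interaction is the test of that difference. Only the 347 of 10311 genes that passed the interaction were searched, so its p is no separate support for a reversal. The LPS effect did so in 15 of the 347 genes. Of those named, Dusp6 (interaction 3.90 in log2), Id1 (2.94) and Myc (2.31) fell with LPS in untreated cells and rose with it in tunicamycin-treated cells.

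The tunicamycin effect did so in 61 of the same 347 genes. It was a rise without LPS and a fall in its presence for the interferon-induced Ifit3 (-4.02), Ifit2 (-3.80) and Cxcl10 (-3.73), for Cd69 (-3.76), Ptges (-2.34), Socs3 (-1.79) and Nr1h3 (-1.09). It was a fall without LPS and a rise in its presence for Dusp7 (2.86), Rap2a (2.64), Myc (2.31), Otud1 (2.2), Fbxo33 (2.16), Plk2 (1.43) and Gpr34 (1.30). The direction thus depended on LPS in genes that LPS raised and in genes that it lowered.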

How the results depend on the processing

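The number of genes that passed was 347, and 259 to 350 over the other scales, filters, pseudocounts and eBayes settings tried. With no filter, 91 were positive, with 4 synergistic and 24 antagonised falls. With no class margin, 51 synergistic rises, 20 synergistic falls, 127 antagonised rises, 46 saturated rises, 10 saturated falls and 9 opposed negative genes were counted. With a 2-fold margin, the counts were 11 synergistic rises, 42 antagonised rises, 30 antagonised falls, 9 opposed positive and 0 opposed negative genes, which follows from how the margin cuts the classes. Without control replicate 2 and joint replicate 3, chosen after seeing the data, 216 passed, 70 positive, with 13 synergistic rises, 20 antagonised falls and 21 saturated falls. Leaving out 1 library at a time gave 228 to 352 genes, 92 to 172 positive and 136 to 196 negative. By class it gave 15 to 28 synergistic rises, 2 to 15 synergistic falls, 52 to 77 antagonised rises, 33 to 78 antagonised falls, 61 to 89 saturated rises, 24 to 39 saturated falls, 11 to 15 opposed positive and 3 to 5 opposed negative genes. Il6 turned to -0.38 with a pseudocount of 0.1, and the cause was not tested. On the FPKM scale, where additivity means that FPKM changes sum, the sign differed for Angptl2 (8.97 FPKM), Arl5c (8.74), C5ar1 (-36.0), Ccl2 (-531), Ccl3 (-555), Ccl4 (-1286), Ccl7 (-871), Cd14 (-258), Cd274 (12.4), Csf1 (176), Fas (7.5), Herpud1 (373), Ppp1r15a (263), Sqstm1 (2362), Trib3 (-147) and, with no call on either scale, Tnf (302), Atf4 (8.69) and Hspa5 (3580). Of all these, only Csf1, Herpud1, Ppp1r15a and Trib3 passed on the FPKM scale. The FPKM values of the others, and so their signs there, were not told apart from 0.

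Replicate numbers paired the libraries weakly at most. Deviations of same-numbered libraries correlated at r of -0.0391 to 0.0945, 0 of 18 over 0.1, and those of other-numbered libraries at -0.11 to 0.0458. Of 12 libraries, 8 correlated best with their own number, and whether the numbers mark a weak pairing was not tested. With the replicate number as a block, 348 genes passed, 145 positive and 203 negative, and of the genes named Cdt1 (0.87), Mars (0.60) and Il6 (1.17, adjusted p = 0.0684) missed the threshold. Depth is unknown, 52 of the 347 genes had a group mean under 1 FPKM, and the fold of such genes rests on the pseudocount.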
